A study of Caenorhabditis elegans with 16 samples.

Results

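The 7 genes described here, *ftn-1*, *ftn-2*, *smf-1*, *smf-2*, *smf-3*, *mtl-1* and *mtl-2*, store, carry or bind iron and other metals in the nematode *C. elegans*. They were taken by name, a choice made with earlier results of these data known, and all 7 were found among the 19750 genes of the table. RNA came from whole worms of the wild-type strain N2, collected as day 1 adults in pools of about 500, and each of the 4 groups had 4 samples. In EV + vehicle, worms ate bacteria that carried an empty vector (EV), which silences no gene, with water as the vehicle and no added fat. In EV + P-80 the worms received P-80, a polysorbate detergent that carries oleic acid. The bacteria of the other 2 groups silenced *ech-6*, an enoyl-CoA hydratase gene, by RNA interference (RNAi), again without P-80 (*ech-6* RNAi + vehicle) or with it (*ech-6* RNAi + P-80). The dose of P-80 was not given in the sources used here. The study asked how worms respond to this fat diet with and without *ech-6*.

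Ferritins are hollow protein shells that store iron in a form that does not harm the cell. FTN-1 and FTN-2 are the ferritins of the worm, and *ftn-1* is known as a gene of the intestine whose transcript rises with iron. The SMF proteins resemble the mammalian divalent metal transporter DMT1 and bring iron, manganese and related metals into cells, with SMF-3 known for uptake in the intestine. Metallothioneins are small cysteine-rich proteins that bind metals such as cadmium and zinc, and both worm genes are known to respond to cadmium in the intestine.

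All 7 are protein-coding genes, and they are placed here on the assembly WBcel235. *ftn-1* (WBGene00001500) lies on the minus strand of chromosome V from 7546468 to 7547579, and *ftn-2* (WBGene00001501) on the minus strand of chromosome I from 3680180 to 3680927. Both metallothionein genes are on the minus strand of chromosome V, *mtl-1* (WBGene00003473) from 6691371 to 6691863 and *mtl-2* (WBGene00003474) from 14018270 to 14018673. *smf-1* (WBGene00004876) and *smf-2* (WBGene00004877) are neighbours on the minus strand of chromosome X, from 6719669 to 6723066 and from 6716195 to 6718695, with 973 bases between them. *smf-3* (WBGene00004878) lies on the plus strand of chromosome IV from 2618869 to 2625503. Only *smf-2* overlapped another annotated gene, *nas-11* on the opposite strand, and the counting used strand.

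The libraries held 15306307 to 28129104 reads on genes, and levels are given as CPM, reads on the gene scaled to a common library size. Defining markers of intestine, hypodermis, body wall muscle, pharynx, neurons, germline and sperm were above 0 in every group, as fits the label of whole worms. The targeted gene went against the label of 1 library. *ech-6* stood at 164 to 181 CPM in EV + vehicle, at 66.4, 68.3 and 71.8 CPM in replicates 2, 1 and 4 of *ech-6* RNAi + vehicle, and at 178 CPM in the library labelled *ech-6* RNAi + vehicle replicate 3. In *ech-6* RNAi + P-80 it was 61.0 to 72.3 CPM. Calls in comparisons that hold that library are therefore also given without it. A gene was called where limma's moderated test, fitted on all genes and all 16 samples, gave a Benjamini-Hochberg adjusted p under 0.05, and fold changes are on the log2 scale of the deposited values.

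Per length of exon, *ftn-2* was the most abundant of the 7 genes in these libraries and *smf-2* the least. The mean over the 16 libraries was 229 CPM per kilobase for *ftn-2*, 21.4 for *ftn-1*, 19.3 for *mtl-2*, 6.97 for *smf-3*, 6.36 for *smf-1*, 0.538 for *mtl-1* and 0.124 for *smf-2*. Over the libraries, the ranges of *ftn-1* and *mtl-2* overlapped, as did those of *mtl-2* and *smf-3*, of *smf-3* and *smf-1* and of *mtl-1* and *smf-2*. *ftn-2* thus stood apart from all others, at 176 to 283 CPM per kilobase, and had more reads than 94.9% of all genes by mean log2 CPM. *ftn-1*, *smf-1* and *smf-3* lay above 59.6% to 62.0% of genes and *mtl-2* above 49.4%.

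**Figure D1:**
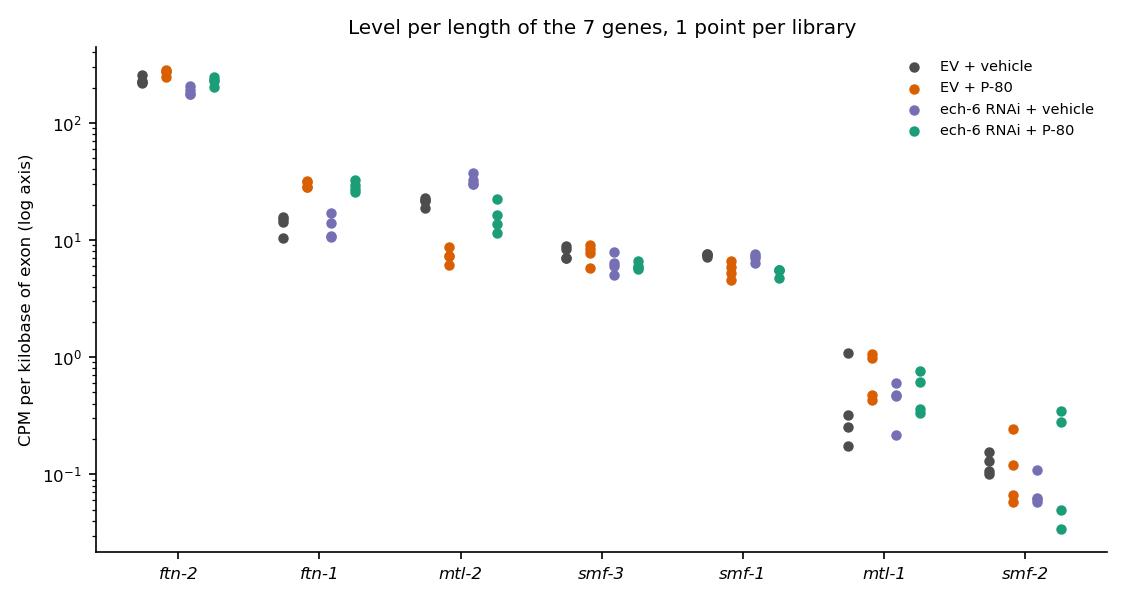
Level of each of the 7 genes in CPM per kilobase of exon on a log axis, 1 point per library, coloured by group, genes ordered by their mean. *ftn-2* lies at 176 to 283, and the points of *mtl-1* and *smf-2* mostly lie below 1. Within each RNAi background, the P-80 libraries lie above the vehicle libraries for *ftn-1* and below them for *mtl-2*.

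*mtl-1* and *smf-2* were close to the limit of detection in day 1 adults. *mtl-1* had 1 to 11 reads per library and 66 in all, and *smf-2* 1 to 11 and 72 in all, where 3 reads is taken as the floor. Summed over the 4 libraries of a group, *mtl-1* gave 16 reads in EV worms on vehicle, 22 reads in those on P-80, and 14 reads in either group with *ech-6* RNAi. For *smf-2* the sums were 18 and 19 in EV without and with P-80, and 12 and 23 in *ech-6* RNAi without and with it. Most of the EV + vehicle reads of *mtl-1*, 11 of 16, came from replicate 3. Neither gene was called in any comparison, which at this depth does not show that the levels were the same. No fold change is given for them.

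P-80 raised both ferritin transcripts, the inducible *ftn-1* by far the most, and lowered *mtl-2* and *smf-1*, in EV worms. In *ech-6* RNAi worms the same 4 genes were called, and without the library labelled *ech-6* RNAi + vehicle replicate 3 only *ftn-1* and *mtl-2* were. In EV worms 2 of the 7 genes rose and 2 fell with P-80, where 16.1% of all genes were called, 6.97% higher and 9.14% lower. The groups did not overlap for 3 of the 7, which held for 19% of all genes. In *ech-6* RNAi worms the same counts were 2 higher, 2 lower and 3 without overlap, where 7.21% of all genes were called, 2.63% higher and 4.58% lower, and 11.2% did not overlap. Over the 5 genes other than *mtl-1* and *smf-2*, the median log2 fold change was -0.03 for P-80 in EV worms and -0.05 in *ech-6* RNAi worms, beside -0.0025 and -0.02 over all genes.

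*ftn-1* stood at 9.12, 6.27, 8.62 and 9.55 CPM in EV + vehicle replicates 1 to 4 and at 17, 18.8, 19.2 and 17 CPM in EV + P-80. Under *ech-6* RNAi it was 10.3, 8.45, 6.56 and 6.42 CPM with vehicle, and 16.6, 19.8, 17.8 and 15.7 CPM with P-80. All 8 P-80 libraries were above all 8 vehicle libraries. The means were 8.39 ± 1.46 and 18 ± 1.16 CPM in EV (SD, n = 4), a 2.17-fold rise (95% interval 1.76 to 2.67, log2 SE 0.14, adjusted p 5.7e-05). In *ech-6* RNAi worms they were 7.94 ± 1.85 and 17.5 ± 1.81 CPM, a 2.23-fold rise (1.82 to 2.74, adjusted p 5.7e-05). Every alternative and every fit without 1 library kept both calls. *ech-6* RNAi left *ftn-1* without a call, with intervals of its log2 fold change from -0.39 to 0.21 with vehicle and from -0.35 to 0.25 with P-80. The P-80 effects in the 2 RNAi backgrounds differed by 0.04 on the log2 scale (-0.38 to 0.46).

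*ftn-2* moved with P-80 by much less than *ftn-1*. Its libraries gave 168, 146, 142 and 149 CPM in EV + vehicle and 184, 160, 181 and 176 CPM in EV + P-80. The lowest P-80 library lay below the highest vehicle library, so the groups overlapped. The means were 151 ± 11.3 and 175 ± 10.7 CPM (SD, n = 4), a log2 rise of 0.21 (SE 0.07, adjusted p 0.034). In *ech-6* RNAi worms the libraries gave 134, 123, 115 and 115 CPM with vehicle and 160, 133, 151 and 149 CPM with P-80, which overlapped in 1 library. The means were 122 ± 9.15 and 148 ± 11.5 CPM, a log2 rise of 0.28 (adjusted p 0.0149). The *ftn-2* call in EV was lost without EV + vehicle replicate 2, 3 or 4 or EV + P-80 replicate 1, 3 or 4 (adjusted p up to 0.1), and with no trend in the variances (0.0899). The one in *ech-6* RNAi was lost without the library labelled *ech-6* RNAi + vehicle replicate 3 (0.0577), without replicate 4 of that group (0.0582) and without *ech-6* RNAi + P-80 replicate 1 (0.0629), and with no trend (0.0707).

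With *ftn-1* rising about 2-fold and *ftn-2* little, the balance of the ferritin transcripts changed. Per kilobase, *ftn-2* exceeded *ftn-1* 14.5 to 21.6-fold in the EV + vehicle libraries and 7.90 to 10.1-fold in EV + P-80. Under *ech-6* RNAi the ratio was 12.1 to 16.6 with vehicle and 6.22 to 9.0 with P-80. The vehicle and P-80 libraries did not overlap in this ratio in either background.

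**Figure D2:**
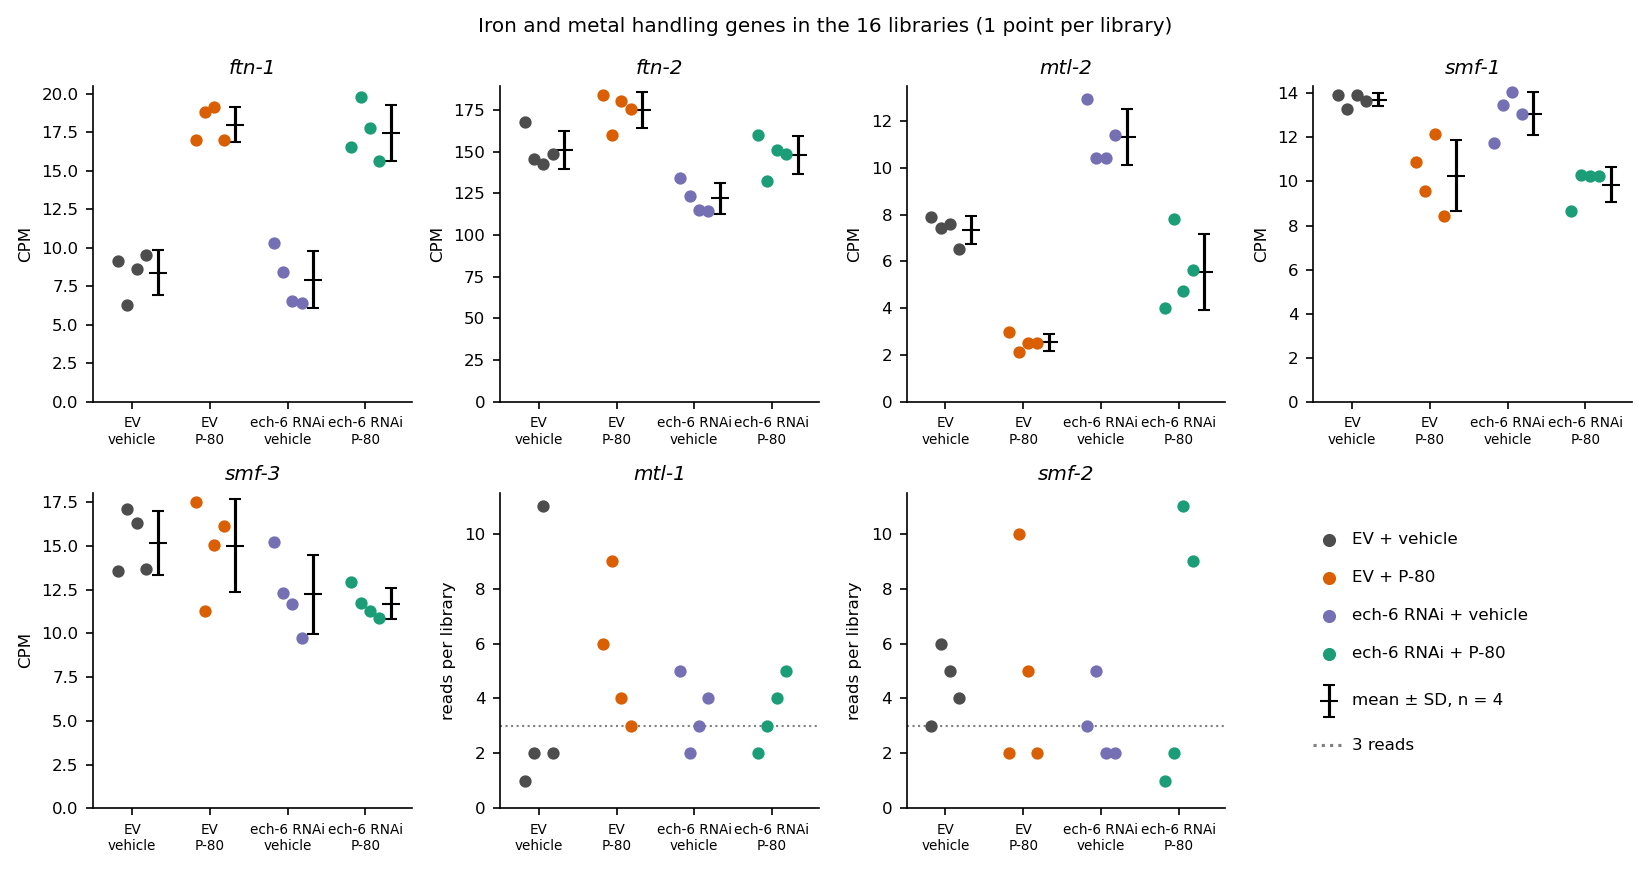
CPM of *ftn-1*, *ftn-2*, *mtl-2*, *smf-1* and *smf-3* and reads per library of *mtl-1* and *smf-2* in the 4 groups, 1 point per library, with the mean and SD of 4 libraries beside the points. *ftn-1* is higher in all P-80 libraries (15.7 to 19.8 CPM) than in all vehicle libraries (6.27 to 10.3 CPM), *mtl-2* is lowest in EV + P-80 (2.12 to 3.0 CPM), and *mtl-1* and *smf-2* scatter around 3 reads.

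*mtl-2*, the metallothionein gene with enough reads to compare, fell with P-80. It stood at 7.88, 7.41, 7.59 and 6.51 CPM in EV + vehicle and at 3.0, 2.12, 2.53 and 2.51 CPM in EV + P-80, the latter from 47 to 57 reads per library. In *ech-6* RNAi worms it stood at 12.9, 10.4, 10.4 and 11.4 CPM with vehicle and at 4.02, 7.80, 4.75 and 5.62 CPM with P-80. The groups did not overlap in either background. The means were 7.35 ± 0.593 and 2.54 ± 0.360 CPM in EV (SD, n = 4), so that the level was 2.90-fold lower with P-80 (log2 fold change -1.54, 95% interval -1.87 to -1.2, adjusted p 6.4e-06). In *ech-6* RNAi they were 11.3 ± 1.2 and 5.55 ± 1.64 CPM, 2.09-fold lower (log2 fold change -1.06, -1.40 to -0.73, adjusted p 6.2e-04). Every alternative and every fit without 1 library kept both *mtl-2* calls. The difference between them was 0.47 on the log2 scale (-0.0015 to 0.95, adjusted p 0.84), so the fall was not shown to differ between backgrounds.

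Among the transporters, *smf-1* fell with P-80 and *smf-3* was not called. *smf-1* stood at 13.9, 13.3, 13.9 and 13.7 CPM in EV + vehicle and at 10.9, 9.58, 12.1 and 8.45 CPM in EV + P-80. Under *ech-6* RNAi it was 11.7, 13.5, 14.0 and 13.1 CPM with vehicle and 8.66, 10.3, 10.2 and 10.3 CPM with P-80. The P-80 libraries lay below the vehicle libraries in each background, though the highest EV + P-80 library was above the lowest *ech-6* RNAi + vehicle library. The log2 fold change of *smf-1* was -0.43 in EV (-0.64 to -0.22, adjusted p 0.0057) and -0.41 in *ech-6* RNAi (-0.62 to -0.20, adjusted p 0.0177). The second call was lost without *ech-6* RNAi + vehicle replicate 2 (0.0575), without the library labelled replicate 3 of that group (0.0643) and without *ech-6* RNAi + P-80 replicate 1 (0.0697), and with no trend (0.0521).

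*smf-3* gave 13.5, 17.1, 16.3 and 13.7 CPM in EV + vehicle and 17.5, 11.3, 15.1 and 16.2 CPM in EV + P-80. The P-80 range covered that of the vehicle libraries. In *ech-6* RNAi it gave 15.2, 12.3, 11.7 and 9.77 CPM with vehicle and 12.9, 11.7, 11.3 and 10.9 CPM with P-80. P-80 gave *smf-3* a log2 fold change of -0.03 in EV (-0.31 to 0.25) and of -0.05 in *ech-6* RNAi (-0.33 to 0.23). These intervals do not show that the level was the same, and the sign of both turned with another scaling. Per kilobase, the ratio of *smf-3* to *smf-1* was 0.922 to 1.22 in EV + vehicle and 1.12 to 1.81 in EV + P-80. Under *ech-6* RNAi this ratio was 0.71 to 1.23 with vehicle and 1.01 to 1.42 with P-80. It lay on both sides of 1 in the vehicle groups and above 1 in the P-80 groups. The vehicle and P-80 libraries overlapped in this ratio in both backgrounds.

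**Figure D3:**
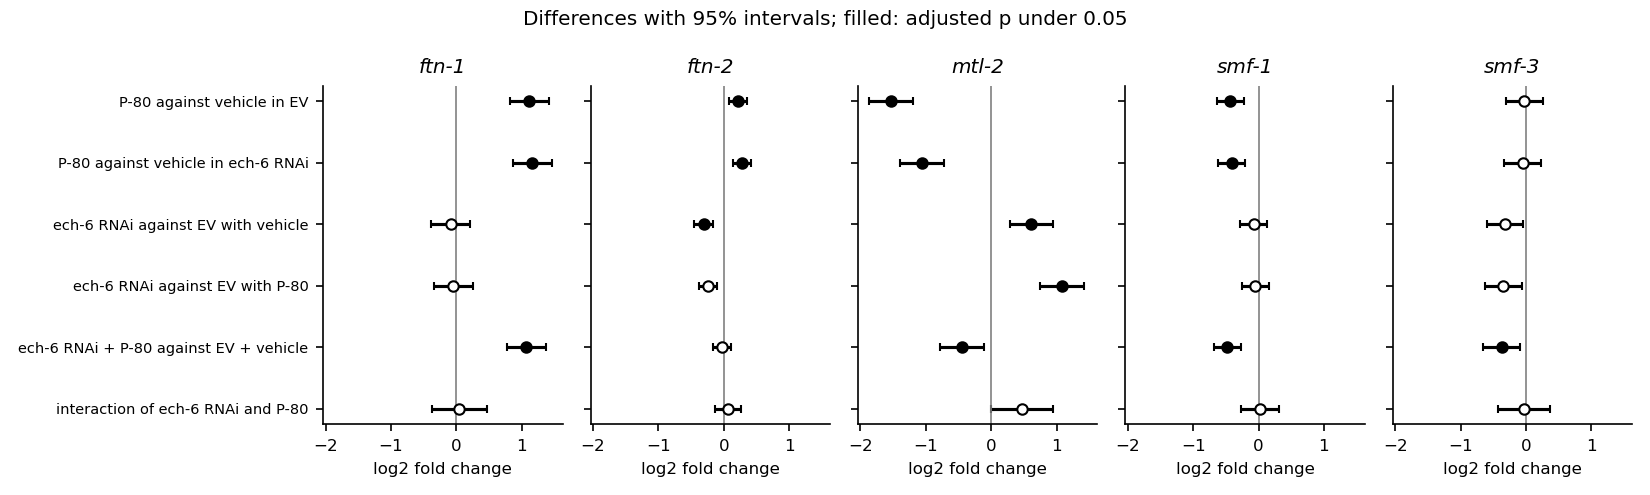
Log2 fold change with its 95% interval for the 5 measured genes in 6 comparisons, the last being the difference between the P-80 effects. Filled points have an adjusted p under 0.05: *ftn-1* is near 1.1 and *mtl-2* between -1.54 and -1.06 for P-80, and the *ech-6* RNAi effects are called for *ftn-2* with vehicle and for *mtl-2* in both diets.

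Genes of larval cuticle and molting moved with the groups, and their values are given beside the results for the 7 genes. All 5 molting genes listed (*mlt-8*, *mlt-10*, *nas-37*, *noah-1* and *noah-2*) fell with P-80 in EV, beside 9.14% of all genes lower. In *ech-6* RNAi 4 fell, beside 4.58%. Of these, *mlt-8* was still called without the library labelled *ech-6* RNAi + vehicle replicate 3 (adjusted p 0.0238), and *mlt-10*, *noah-1* and *noah-2* were not (0.0509, 0.0807 and 0.111). With both treatments against EV + vehicle all 5 fell, beside 14.0%, with a list median of -1.96 on the log2 scale. The summed level of the 5 genes went from 392 to 650 CPM in the EV + vehicle libraries and from 103 to 279 CPM in EV + P-80. With *ech-6* RNAi it was 298 to 331 CPM without P-80 and 118.6 to 250 CPM with it. The *ech-6* RNAi + vehicle libraries thus lay below those of EV + vehicle, with a list median of -0.68 on the log2 scale and 0 of 5 genes called. Of 4 hypodermis markers, all were called with P-80 in EV, beside 16.1% of all genes. The larval collagen genes *dpy-7* and *rol-6* and the regulator *lin-26* fell, and *col-19*, a collagen gene of adults, rose by 0.53 on the log2 scale. Of these 4, *rol-6* also fell with P-80 in *ech-6* RNAi (-1.35, adjusted p 0.0177, and 0.0513 without that library), and *col-19* rose with *ech-6* RNAi and vehicle (0.41, adjusted p 0.003, and 0.0081 without it). The part of these genes in the result was not tested. In RNA of whole worms, fewer cells of a type and less RNA per cell cannot be told apart.

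None of the 6 intestine markers (*ges-1*, *act-5*, *ifb-2*, *pept-1*, *elt-2* and *elt-7*), a tissue where several of the 7 genes are known to act, was called for P-80 or for *ech-6* RNAi within a diet. Their summed level was 991 to 1052 CPM in EV + vehicle and 947 to 1151 CPM in EV + P-80. With *ech-6* RNAi it was 927 to 948 CPM without P-80 and 958 to 1044 CPM with it. The mean sum was lowest in *ech-6* RNAi + vehicle (936 CPM), where the mean of *ftn-2* was also lowest. The sums of that group (927 to 948 CPM) all lay below those of EV + vehicle (991 to 1052 CPM), the group against which *ftn-2* fell. They overlapped the lowest library of EV + P-80 (947 CPM), the group with the highest mean of *ftn-2* (175 CPM). The part of the intestine sums in the fall of *ftn-2* was not tested. Markers of other tissues were called as follows, beside these shares of all genes. For P-80, 6.97% were higher and 9.14% lower in EV, and 2.63% higher in *ech-6* RNAi. For *ech-6* RNAi, 1.95% were higher and 0.982% lower with vehicle, and 0.476% higher with P-80. With both treatments against EV + vehicle, 11.5% were higher and 14.0% lower. Of 4 muscle markers, 1 was higher for P-80 in EV, 3 in *ech-6* RNAi (none of them without the doubtful library, adjusted p 0.059 to 0.0786) and 2 with both treatments against EV + vehicle. Of 3 pharynx markers, 1 was higher for *ech-6* RNAi with P-80 and all 3 with both treatments. Of 4 neuron markers, 1 was lower for P-80 in EV, for *ech-6* RNAi with vehicle and with both treatments. Of 5 germline and oocyte markers, 2 were higher for P-80 in EV (*cbd-1* not without the doubtful library, adjusted p 0.0595) and 2 with both treatments. Of 5 sperm markers, 1 was higher for P-80 in EV, 1 for *ech-6* RNAi with vehicle and 3 with both treatments. The neuron and sperm calls for *ech-6* RNAi with vehicle were lost without the doubtful library (*snb-1* and *gsp-3*, adjusted p 0.0865 for each).

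*ech-6* RNAi raised *mtl-2* and lowered *ftn-2* with vehicle, and with P-80 only the rise of *mtl-2* was called among the 7 genes. Without the library labelled *ech-6* RNAi + vehicle replicate 3, neither call with vehicle was kept (adjusted p 0.0681 for *mtl-2* and 0.0519 for *ftn-2*). The counts that follow include that library. With vehicle 1 gene was higher and 1 lower, where 2.94% of all genes were called, 1.95% higher and 0.982% lower, and 2 of the 7 did not overlap, beside 13.1% of all genes. With P-80 1 gene was higher and 0 lower, where 0.699% of all genes were called, 0.476% higher and 0.223% lower, and 1 did not overlap, beside 4.62%. The median log2 fold change of the same 5 genes was -0.09 with vehicle and -0.05 with P-80, beside 1.6e-05 and -0.0099 over all genes.

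With vehicle, *mtl-2* rose 1.53-fold from 7.35 to 11.3 CPM (1.22 to 1.93, log2 fold change 0.62, SE 0.16, adjusted p 0.043). All 4 *ech-6* RNAi libraries (10.4 to 12.9 CPM) were above all 4 EV libraries (6.51 to 7.88 CPM). This call of *mtl-2* was lost without any 1 of those 8 libraries, with an adjusted p up to 0.147, without *ech-6* RNAi + P-80 replicate 4 (0.0544), and with no trend (0.106). Without the library labelled *ech-6* RNAi + vehicle replicate 3, the log2 fold change was 0.65 (adjusted p 0.0681). With P-80, *mtl-2* rose 2.13-fold from 2.54 to 5.55 CPM (1.69 to 2.68, log2 fold change 1.09, SE 0.16, adjusted p 0.0012). The *ech-6* RNAi libraries at 4.02 to 7.80 CPM were again all above the EV libraries at 2.12 to 3.0 CPM, and this call held in every alternative and every fit without 1 library.

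*ftn-2* was lower in *ech-6* RNAi + vehicle than in EV + vehicle by 0.31 on the log2 scale in these 8 libraries (log2 fold change -0.31, -0.45 to -0.17, adjusted p 0.0142). The *ech-6* RNAi libraries (115 to 134 CPM) lay below the EV libraries (142 to 168 CPM). Without the library labelled *ech-6* RNAi + vehicle replicate 3, *ftn-2* gave -0.28 with an adjusted p of 0.0519, without replicate 4 of that group 0.0605, without EV + vehicle replicate 1 0.0711, and with no trend 0.0731. With P-80 the *ftn-2* difference was -0.24 (-0.38 to -0.10, adjusted p 0.115), and the groups overlapped. *smf-1* gave -0.07 with vehicle (-0.28 to 0.14) and -0.05 with P-80 (-0.26 to 0.16). *smf-3* gave -0.32 (-0.60 to -0.04, adjusted p 0.205) and -0.34 (-0.62 to -0.06, adjusted p 0.354), so neither difference passed after adjustment over all genes.

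**Figure D4:**
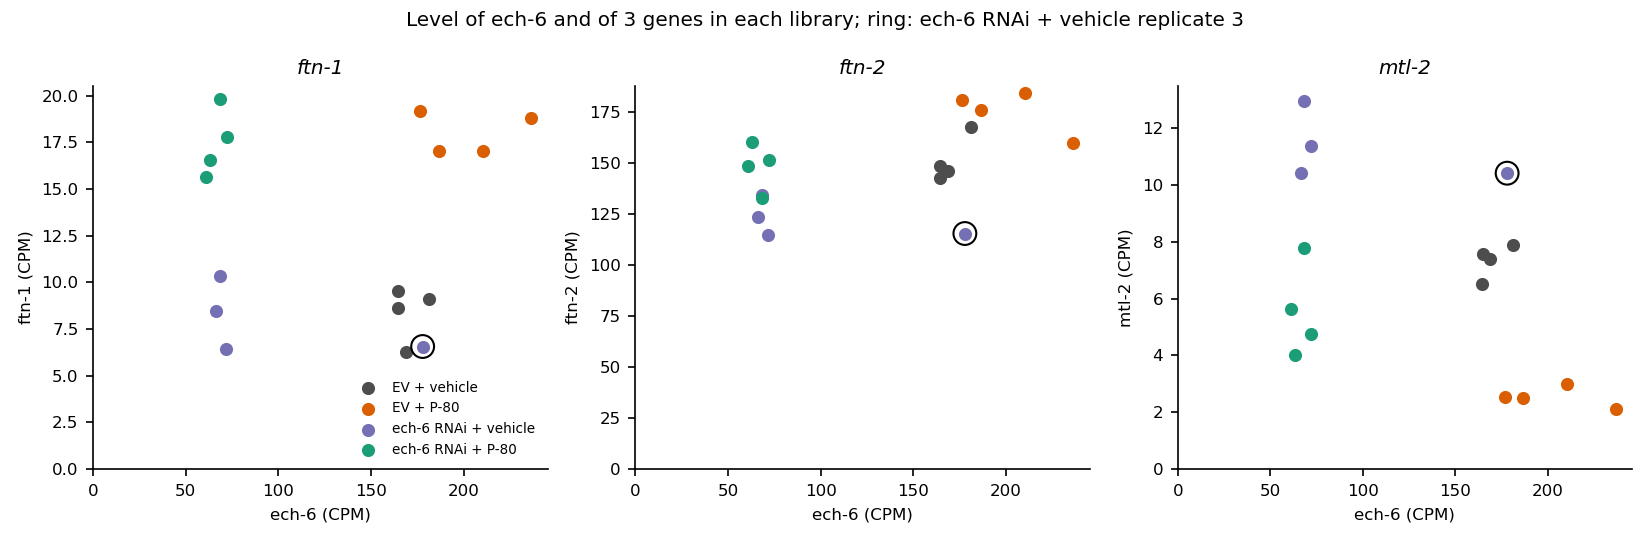
CPM of *ech-6* against CPM of *ftn-1*, *ftn-2* and *mtl-2* in each library, coloured by group. The ringed library, labelled *ech-6* RNAi + vehicle replicate 3, has *ech-6* at 178 CPM, near the EV libraries, while its *ftn-2* (115 CPM) and *mtl-2* (10.4 CPM) are close to those of the other *ech-6* RNAi + vehicle libraries.

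The library labelled *ech-6* RNAi + vehicle replicate 3 thus had EV-like *ech-6* but not EV-like *ftn-2* or *mtl-2*. Its *ftn-2* at 115 CPM was below all EV + vehicle libraries (142 CPM and more), and its *mtl-2* at 10.4 CPM was above all of them (7.88 CPM and less). Both genes were without overlap in the comparison that holds this library, so this is not a separate result. Its *ftn-1* at 6.56 CPM lay within the EV + vehicle range (6.27 to 9.55 CPM), its *smf-3* (11.7 CPM) below and its *smf-1* (14.0 CPM) just above theirs. With this library left out, 4 of 7 genes were still called for P-80 in EV and 1 of 7 for *ech-6* RNAi with P-80. The counts fell to 2 for P-80 in *ech-6* RNAi and to 0 for *ech-6* RNAi with vehicle.

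For P-80 and *ech-6* RNAi together against EV + vehicle, *ftn-1* was higher and *smf-1*, *smf-3* and *mtl-2* were lower. These 1 and 3 of 7 genes stand beside 25.4% of all genes called, 11.5% higher and 14.0% lower. The groups did not overlap for 3 of the 7, beside 25.4% of all genes. The median log2 fold change was -0.37 over the 5 genes other than *mtl-1* and *smf-2*, and -0.02 over all genes. *ftn-1* rose 2.1-fold (1.71 to 2.58, adjusted p 2.8e-05) and *smf-1* gave a log2 fold change of -0.48 (-0.69 to -0.27, adjusted p 0.0013). Both calls held in every alternative and every fit without 1 library. *ftn-2*, at 151 and 148 CPM, gave -0.03 (-0.17 to 0.11), and the sign turned when each sample was centred on its median over all genes (0.09).

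*mtl-2* and *smf-3* sat at the edge of the threshold in this comparison. *mtl-2* was 7.35 CPM in EV + vehicle and 5.55 CPM with both, with overlapping libraries (log2 fold change -0.45, -0.78 to -0.11, adjusted p 0.0474). The *mtl-2* call was kept in 3 of 10 alternatives and 5 of 16 fits without 1 library, with an adjusted p up to 0.177 (without *ech-6* RNAi + P-80 replicate 1). *smf-3* fell from 13.5 to 17.1 CPM in EV + vehicle to 10.9 to 12.9 CPM with both, without overlap (log2 fold change -0.37, -0.65 to -0.09, adjusted p 0.0498). The *smf-3* call was kept in 6 of 10 alternatives and 7 of 16 fits without 1 library, with an adjusted p up to 0.132 (without EV + vehicle replicate 2). Without the library labelled *ech-6* RNAi + vehicle replicate 3, which neither group holds but which shares the estimate of spread, the adjusted p was 0.0562 for *mtl-2* and 0.0595 for *smf-3*. This comparison shares its EV + vehicle libraries with the comparisons above and is not a separate observation of them.

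The order of the groups was thus different for each gene. From high to low mean, *ftn-1* went 18 CPM (EV + P-80), 17.5 CPM (*ech-6* RNAi + P-80), 8.39 CPM (EV + vehicle) and 7.94 CPM (*ech-6* RNAi + vehicle), and within each pair of like diet the groups overlapped. *ftn-2* went 175 CPM (EV + P-80), 151 CPM (EV + vehicle), 148 CPM (*ech-6* RNAi + P-80) and 122 CPM (*ech-6* RNAi + vehicle), and each neighbouring pair overlapped. *mtl-2* went 11.3 CPM (*ech-6* RNAi + vehicle), 7.35 CPM (EV + vehicle), 5.55 CPM (*ech-6* RNAi + P-80) and 2.54 CPM (EV + P-80), with an overlap only between the middle groups. *smf-1* was ordered by diet, at 13.7 and 13.1 CPM with vehicle and 10.3 and 9.86 CPM with P-80 (EV before *ech-6* RNAi in each), and *smf-3* by RNAi, at 15.2 and 15 CPM in EV and 12.2 and 11.7 CPM in *ech-6* RNAi (vehicle before P-80 in each). Each neighbouring pair of *smf-1* and of *smf-3* in those orders overlapped.

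No interaction of *ech-6* RNAi and P-80 was called for the 7 genes or for any of the 19750 genes (0.0%) by limma. At an unadjusted p under 0.05 there were 0 of the 7 genes and 1168 of all genes, and voom weights also called 0 of the 7. For *ftn-2* the interaction was 0.07 (-0.13 to 0.26), for *smf-1* 0.02 (-0.27 to 0.32) and for *smf-3* -0.02 (-0.42 to 0.37).

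In each comparison most other listed genes of iron and heme handling were not called, though the genes called differed between comparisons. Of 18 listed, 3 rose with P-80 in EV, where 16.1% of all genes were called and 6.97% were higher. In *ech-6* RNAi 1 rose and 1 fell, beside 7.21% of all genes called. The list's median log2 fold change was 0.07 and -0.01, beside -0.0025 and -0.02 over all genes. *hrg-4*, a heme transporter gene of the intestine, rose from 14.5 to 20.2 CPM in EV (log2 fold change 0.47, adjusted p 0.0266) and from 10.3 to 16.0 CPM in *ech-6* RNAi (0.62, adjusted p 0.0115, and 0.0395 without the library labelled *ech-6* RNAi + vehicle replicate 3). The other 2 that rose in EV, named after their values were seen, were *hrg-3* (0.75), which encodes a protein that carries heme to embryos, and *mrp-5* (0.27), a heme exporter gene. *hrg-6*, a relative of *hrg-4*, fell in *ech-6* RNAi (-0.68, adjusted p 0.0242), a call lost without that library (0.0681).

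With *ech-6* RNAi, 1 iron and heme gene was lower with vehicle and 1 with P-80, beside 0.982% and 0.223% of all genes. *hrg-7*, named *asp-10* in the table and known for heme signalling between tissues, went from 501 to 331 CPM with vehicle (log2 fold change -0.61, adjusted p 0.0282, and 0.081 without the library labelled *ech-6* RNAi + vehicle replicate 3). *hrg-1*, a heme transporter gene, went from 134 to 94.8 CPM with P-80 (-0.48, adjusted p 0.0424, and 0.0526 without the same library, which neither group holds). With both treatments against EV + vehicle 1 of the 18 was higher and 6 lower, beside 11.5% and 14.0% of all genes. The 1 that was higher, *fpn-1.3* (0.91, adjusted p 0.0346), is annotated as a pseudogene and was named after its values were seen. These 7 calls were 3 with median centring and 4 with quantile normalization. The 6 include the ferroportin homologue *fpn-1.1* (18.5 to 13 CPM, log2 fold change -0.52, adjusted p 8.1e-04), *hrg-2* (-0.76) and *hrg-6* (-0.53). The list's median was -0.14 there, beside -0.02 over all genes.

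Zinc and copper genes held 1 transporter gene that moved about as much as *ftn-1*. Of 23 listed, 5 rose and 4 fell with P-80 in EV, beside 6.97% and 9.14% of all genes, and 1 rose in *ech-6* RNAi, beside 2.63%. *zipt-2.3*, which encodes an intracellular zinc transporter, rose from 3.04 to 6.74 CPM in EV (log2 fold change 1.15, adjusted p 4.0e-05) and from 3.25 to 6.18 CPM in *ech-6* RNAi (0.91, adjusted p 8.6e-04, and 0.0013 without the library labelled *ech-6* RNAi + vehicle replicate 3). *cdf-2*, whose product moves zinc into gut granules for storage, fell from 14.7 to 9.32 CPM with P-80 in EV (-0.69, adjusted p 0.0014) and stood at 9.97 CPM in *ech-6* RNAi + vehicle (-0.57, adjusted p 0.0183, and 0.0235 without that library). *ttm-1*, a zinc exporter gene, rose with P-80 in EV (0.28), and *zipt-7.2* (-0.31) and *zipt-17*, named *zipt-22* in the table (-0.39), fell.

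With *ech-6* RNAi, 2 zinc and copper genes fell with vehicle, beside 0.982% of all genes, and 2 rose with P-80, beside 0.476%. Those that fell were *cdf-2* and *zipt-7.2* (-0.33), the latter not without the library labelled *ech-6* RNAi + vehicle replicate 3 (adjusted p 0.0522). Of those that rose, one was *chca-1*, a copper transporter gene named F58G6.9 in the table, which went from 27.3 to 37.2 CPM (0.45, adjusted p 0.027). The other, *zipt-2.2* (0.63), was named after its values were seen. With both treatments 6 of the 23 were higher and 3 lower, beside 11.5% and 14.0% of all genes, and 17 were called when each sample was centred on its median over all genes, which moved the median of all genes from -0.02 to 0.11. The medians of the list in the 5 comparisons lay between -0.02 and 0.07.

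Of the cadmium and heavy metal list, 8 of 12 genes were in the table, and 2 rose and 0 fell with P-80 in each background, beside 6.97% and 2.63% of all genes higher. These were *cdr-7* (log2 fold change 0.47 in EV and 0.46 in *ech-6* RNAi) and *cdr-6* (0.22 and 0.24), both of the cadmium-responsive gene family. In *ech-6* RNAi both calls were lost without the library labelled *ech-6* RNAi + vehicle replicate 3 (adjusted p 0.0657 and 0.0577). *cdr-4* rose with *ech-6* RNAi, from 22.2 to 33.3 CPM with vehicle (0.58, adjusted p 0.0142, and 0.0265 without that library) and from 23.9 to 40.1 CPM with P-80 (0.72, adjusted p 0.0054). *cdr-2*, of the same family, rose with *ech-6* RNAi on P-80 (0.56, adjusted p 0.0127). With *ech-6* RNAi 1.95% of all genes were higher with vehicle and 0.476% with P-80. With both treatments 3 of the 8 were higher and 0 lower, beside 11.5% and 14.0% of all genes. The metallothionein *mtl-2* and *cdr-4* therefore both stood higher with *ech-6* RNAi, while with P-80 *mtl-2* was lower and *cdr-4* was not called.

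Among 11 of 12 listed regulators in the table, 1 rose and 2 fell with P-80 in EV, beside 6.97% and 9.14% of all genes. *skn-1*, a stress response factor, gave -0.18 in EV and -0.22 in *ech-6* RNAi, where it was the 1 regulator called, beside 7.21% of all genes (adjusted p 0.0079, and 0.0308 without the library labelled *ech-6* RNAi + vehicle replicate 3). *mdt-15*, a Mediator subunit of lipid and metal responses, gave -0.19, and *egl-9*, an oxygen sensor that keeps HIF-1 low, gave 0.20 in EV. None was called for *ech-6* RNAi in either diet. With both treatments 0 were higher and 3 lower, beside 11.5% and 14.0% of all genes, the third being the intestine factor *elt-7* (4.72 to 3.31 CPM, -0.52, adjusted p 0.0195).

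**Figure D5:**
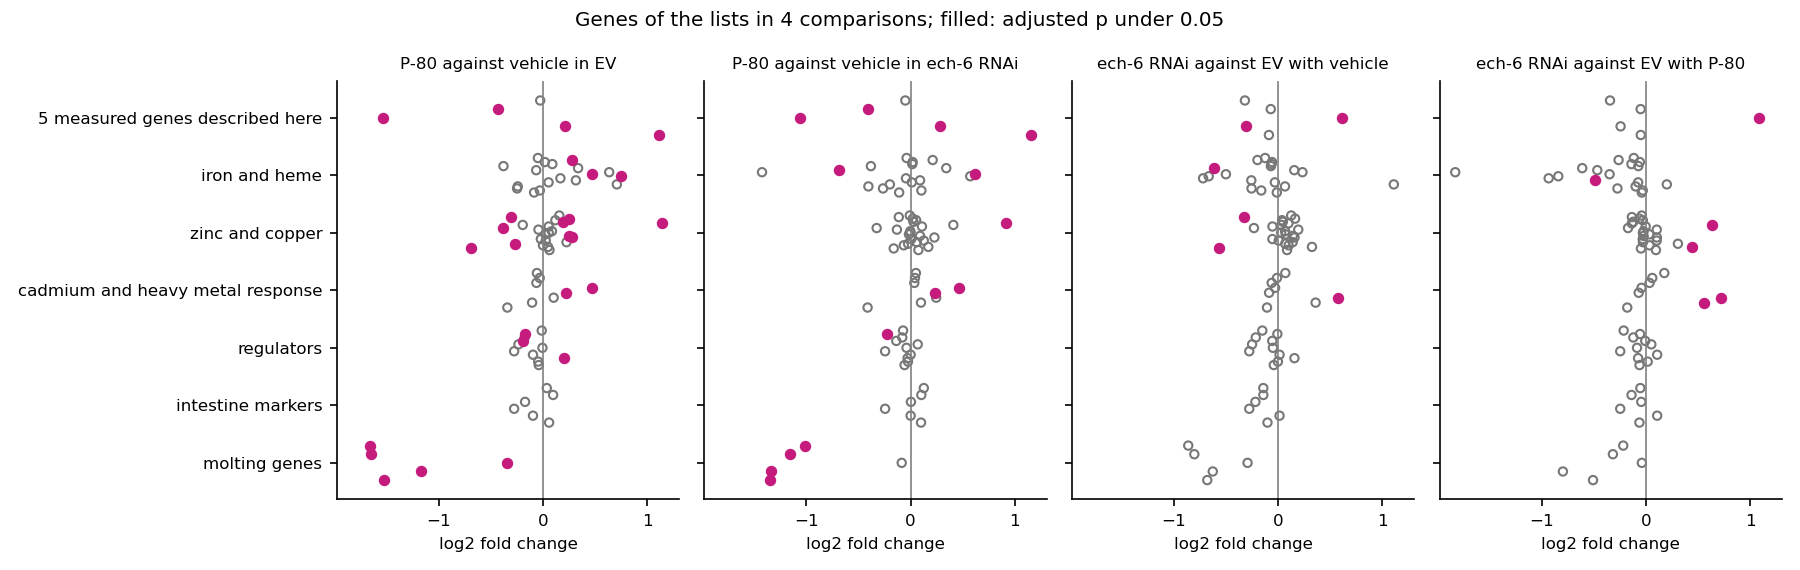
Log2 fold change of the 5 measured genes and of the genes of 6 lists in 4 comparisons, 1 point per gene, filled where the adjusted p is under 0.05. With P-80 the molting genes lie to the left, *ftn-1* and *zipt-2.3* to the right at 0.91 to 1.16, and with *ech-6* RNAi few points are filled.

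Genes with the pattern most like each called member were sought among 13905 genes by Pearson correlation of log2 CPM over the 16 libraries, which share groups, so these values are descriptions. For *ftn-1* they were F42A10.7 (r 0.95), *lact-6* (0.94) and T16G1.7 (0.94), and after the group means were removed these fell to 0.37, 0.32 and 0.39. For *ftn-2* they were Y119D3B.21, the cathepsin B protease gene *cpr-4* and the glutamine synthetase gene *gln-1* (r 0.94, 0.94 and 0.93, and 0.77, 0.75 and 0.78 within groups). *smf-1* was nearest to *pals-18*, F07H5.8 and R02F11.1 (0.96, 0.95 and 0.95, and 0.85, 0.86 and 0.83 within groups). *smf-3* was nearest to F54C9.3, the lipid-binding protein gene *lbp-5* and F32H5.1 (0.86, 0.85 and 0.83, and 0.79, 0.88 and 0.74 within groups). *mtl-2* was nearest to K08D8.6, the prohibitin gene *phb-2* and the aspartyl protease gene *asp-17* (0.89, 0.89 and 0.86, and 0.35, 0.26 and 0.18 within groups). The likeness of *ftn-1* and *mtl-2* to these genes was thus mostly one of group means, and r within groups was higher for *ftn-2*, *smf-1* and *smf-3*. All were picked by r over the same 16 libraries, so the r within groups is not a separate test of likeness.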

How the data were processed

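RNA from pools of whole worms was sequenced in 16 samples, whose titles gave the RNAi and the diet of each of the 4 groups. The authors depleted ribosomal RNA, trimmed reads with Trimmomatic 0.32, aligned them with HISAT2 2.0.4 to WBcel235 and counted them per gene and strand with HTSeq 0.6.1. They kept genes with enough reads, and scaled the counts by TMM. The values deposited by the authors are log2 CPM with a small constant added, though the header says CPM. Undoing the log gave whole reads for 100% of values (within 0.01 reads), and CPM are given here with that constant removed. No pair of replicates was close enough in counts to be 1 library.

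Groups were compared on the deposited log2 values in R 4.3.3 with limma 3.58.1 (eBayes, trend on mean level, two-sided tests), since the unit is not counts. Benjamini-Hochberg adjustment ran over 19750 genes, and the threshold was 0.05. TMM takes most genes as unchanged. The alternatives were a fit without trend, median centring, a filter at 1 CPM, a robust fit, quantile normalization, only the groups compared, sample weights, log2 of CPM plus 1, voom weights on the recovered reads, omission of each sample in turn, and a replicate block. Scripts were tested on simulated data. Intervals cover 95%. Nothing says that the pools came from separate cultures, so p-values measure only the spread between these samples, which may be technical.

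The 7 genes and all lists (iron and heme, zinc and copper, cadmium and heavy metal response, regulators, molting genes, and markers of tissues) were chosen with earlier results of these data known. All 7 were named. Of the other lists, genes called in at least 1 comparison were named, at most 6 per list by smallest p, and for each called member the 3 genes with the highest correlation among those averaging at least 0 log2 CPM. Positions and exon lengths come from Ensembl release 115 on the same assembly, and 8 listed genes were matched through their gene ID.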

Additional observations from a re-analysis of the deposited data

Results flagged for a closer look

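*smf-1* in *ech-6* RNAi + P-80 had 1 library apart from the others. Replicate 1 stood at 3.12 log2 CPM (8.66 CPM), while the other 3 libraries stood at 10.2 to 10.3 CPM. Its gap to the nearest library was 0.979 of the group's range, above Dixon's 95% critical value for 4 samples. Of 20 groups tested (5 genes in 4 groups) this was the only one, and chance flags about 1 in 20. Without this library the fall of *smf-1* with P-80 in *ech-6* RNAi was -0.35 on the log2 scale and no longer called (adjusted p 0.0697).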

How the results depend on the processing

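The P-80 calls of *ftn-1* and *mtl-2*, that of *smf-1* in EV, and that of *mtl-2* for *ech-6* RNAi with P-80 held in all 10 alternatives and all 16 fits without 1 sample. Counts of called genes moved by more than 1.5 times as follows, with the cause not tested. With no trend, 2 of the 7 genes were called for P-80 in *ech-6* RNAi, 0 for *ech-6* RNAi with vehicle and 2 for both treatments against EV + vehicle. With no trend, the iron and heme list had 0 and 1 (P-80, first EV, then *ech-6* RNAi), 0 and 0 (*ech-6* RNAi with vehicle and with P-80), the zinc and copper list 0 and 0 for *ech-6* RNAi, the cadmium list 1 for P-80 in *ech-6* RNAi and 0 and 0 for *ech-6* RNAi, and the molting list 0 for P-80 in *ech-6* RNAi. The robust fit left 1 molting gene there. With quantile normalization the 7 genes had 2 calls for both treatments, and the iron and heme list 1, 3, 2 and 4 (P-80 in *ech-6* RNAi, *ech-6* RNAi with vehicle, with P-80, both treatments), and the zinc and copper list 2 for P-80 in *ech-6* RNAi. With median centring the 7 genes had 2 for both treatments. That setting gave the iron and heme list 4 (P-80 in *ech-6* RNAi), 0 (*ech-6* RNAi with P-80) and 3 (both), the zinc and copper list 3 (P-80 in *ech-6* RNAi) and 17 (both), the cadmium list 2 (*ech-6* RNAi with vehicle) and 5 (both), and the regulators 1 and 0 (P-80, first EV, then *ech-6* RNAi) and 1 (both). With only the groups compared, the iron and heme list had 9 (*ech-6* RNAi with vehicle), 0 (with P-80) and 3 (both), the zinc and copper list 0 (*ech-6* RNAi with P-80), the cadmium list 2 and 1 (*ech-6* RNAi, first vehicle, then P-80) and the molting list 4 (*ech-6* RNAi with vehicle). With sample weights the iron and heme list had 6 and 0 (*ech-6* RNAi, first vehicle, then P-80), the zinc and copper list 3 (P-80 in *ech-6* RNAi), the cadmium list 1 (P-80 in EV) and 2 (*ech-6* RNAi with vehicle), and the regulators 2 (P-80 in *ech-6* RNAi). The filter at 1 CPM, log2 of CPM plus 1 and voom weights each gave 3 iron and heme genes for *ech-6* RNAi with vehicle.

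Samples of different groups share replicate numbers, but the deviations of same-numbered samples correlated between -0.29 and 0.49 over the 5 comparisons, so the number was not taken as a pairing. With the replicate block 1 of the 7 genes was called for *ech-6* RNAi with vehicle and 2 with P-80. *mtl-2* lost the call with vehicle (adjusted p 0.0662) and that for both treatments (0.0699), and *ftn-2* gained one for *ech-6* RNAi with P-80 (0.0227). The block gave the iron and heme list 3 and 2 calls for *ech-6* RNAi on vehicle and on P-80, and the zinc and copper list 2 for P-80 in *ech-6* RNAi and 1 for *ech-6* RNAi with P-80.

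Leaving out 1 sample gave 2 to 4 of the 7 genes for P-80 in *ech-6* RNAi, 0 to 2 for *ech-6* RNAi with vehicle and 2 to 4 for both treatments. Taking the comparisons as P-80 (first EV, then *ech-6* RNAi), *ech-6* RNAi (first vehicle, then P-80) and both treatments, the iron and heme list ranged over 0 to 5, 1 to 3, 0 to 3, 0 to 5 and 3 to 7. For the first 4 the zinc and copper list ranged over 5 to 10, 1 to 3, 0 to 2 and 0 to 2. The cadmium list ranged over 1 to 2, 0 to 2 and 0 to 2 in the first 3. Regulators ranged over 1 to 2 for P-80 in *ech-6* RNAi and 0 to 1 for *ech-6* RNAi with vehicle. Molting genes ranged over 1 to 4 for P-80 in *ech-6* RNAi, 0 to 2 for *ech-6* RNAi with vehicle and 0 to 1 with P-80.

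Signs turned only for log2 fold changes that were not called. Voom weights gave -0.0195 for the *ftn-1* interaction. Centring gave 0.0944 for *ftn-2* with both treatments and 0.0598 and 0.0356 for *smf-3* with P-80 in EV and in *ech-6* RNAi. Quantile normalization gave 0.0120 for *smf-3* with P-80 in *ech-6* RNAi and 0.0159 for its interaction, which was 0.0814 with sample weights. Without 1 sample, *ftn-1* ranged from -0.22 to 0.0041 and from -0.11 to 0.0030 for *ech-6* RNAi with vehicle and with P-80, and from -0.0518 to 0.18 for the interaction. *ftn-2* ranged from -0.0680 to 0.0228 with both treatments. *smf-1* ranged from -0.14 to 0.0358 for *ech-6* RNAi with P-80 and from -0.0668 to 0.11 for the interaction. *smf-3* ranged from -0.11 to 0.10 for P-80 in EV, from -0.15 to 0.0608 in *ech-6* RNAi and from -0.15 to 0.0872 for the interaction.

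The 2 genes at 1 to 11 reads per library, *mtl-1* and *smf-2*, were not called, which at this depth does not show that their levels were the same. The intervals and the 3-read floor cover counting error and the spread between pools, and the reads carried no molecular identifiers.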

Other observations

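*cdr-4*, *hrg-2*, *cdr-7*, *cdr-6* and *cdr-2* lie in this order on the minus strand of chromosome V, between 12407366 and 12415709 (WBcel235). *cdr-4* (0.58) at one end rose with *ech-6* RNAi and vehicle, while *hrg-2*, the next gene, gave -0.72 in the same comparison without a call (adjusted p 0.0974) and -0.76 with both treatments (called). *cdr-7* and *cdr-6*, which follow, were called for P-80 in each background (in *ech-6* RNAi not without the library labelled *ech-6* RNAi + vehicle replicate 3) and not for *ech-6* RNAi. *cdr-2* at the other end gave 0.36 for *ech-6* RNAi with vehicle (adjusted p 0.0806, without overlap). For *ech-6* RNAi on P-80 it was called higher (0.56, adjusted p 0.0127), and it was not called for P-80 in either background. The difference between these genes was not tested.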
